A study of Mus musculus with 38 samples.

Results

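The 10 genes described here belong to the integrated stress response and to the handling of amino acids that it controls. They are Atf4, Ddit3, Trib3, Chac1, Asns, Psat1, Slc7a5, Slc3a2, Slc7a11 and Fgf21, taken by gene name from the 29411 gene names on a custom mouse expression array. The set was chosen with results of these data known: it was selected on, among other things, the signal of Slc7a5, whose level was higher in HF75 than in HF5, and it was set to include Fgf21. Brown adipose tissue was taken from C57BL/6J mice that were divided into 5 groups when weaned, at 3 to 4 weeks of age. The LFC group ate a diet with 10% of its calories from fat, and the HFC group a diet with 60% of calories from fat and added sucrose. The HF5, HF20 and HF75 groups ate that same high fat diet and were given 5, 20 or 75 µg of Kal-1, an aqueous ethno-botanical formulation. The labels do not say per what weight or time a dose was given, and they do not say whether 1 array held the RNA of 1 animal or a pool. LFC and HFC have 10 arrays each (Day 6, 10 and 14 and Week 0, 3, 6, 9, 12, 15 and 18) and each dose group has 6 (Week 3 to Week 18), so that every group has 1 array per time point and the time points serve as its replicates. The series' text speaks of 3 biological replicates, and the labels do not tie these to arrays. All p-values therefore measure the spread between these single arrays. Each level below is the log2 of the processed signal of a gene's probe relative to the 75th percentile of the signals on the same array, so a difference of 1 between groups is a 2-fold difference. Levels of different genes come from different probes and are not compared with each other.

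In the integrated stress response, kinases that sense a lack of amino acids, unfolded protein, haem shortage or viral RNA phosphorylate the translation initiation factor eIF2alpha. General translation then slows while the mRNA of the transcription factor ATF4 is translated more, and ATF4 turns on genes for amino acid synthesis, amino acid uptake, tRNA charging and feedback control. Much of the control of ATF4 is translational, which an mRNA array does not measure. In brown adipose tissue, mitochondrial stress is known to switch on the same genes, among them Fgf21, a secreted factor that acts on metabolism in other tissues.

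ATF4 binds with a C/EBP or other partner to sites of the form TGATGNAA, so the promoters of the members were searched for these letters on both strands. A window of 250 bases before to 50 bases after the annotated start (RefSeq, GRCm38.p6) was at hand for 9 members, all but Slc7a5, and 5 of the 9 held a match. Over all genes, 1219 of 27025 (4.51%) held one in any of their windows, and 1304 of the 32851 windows (3.97%) did. A match is a description of the letters and not a bound site, and Atf4, Ddit3, Psat1 and Slc3a2 had no match in these windows. The matches are shown with up to 11 bases on each side because they are what the 5 promoters with a match share. Each is written 5′ to 3′ on the strand of the gene, with the match in capitals.
Chac1 (chr2:119351038-119351067, plus strand): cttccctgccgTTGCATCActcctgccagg
Trib3 (chr2:152344028-152344057, minus strand): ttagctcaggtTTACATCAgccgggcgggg
Slc7a11 (chr3:50443642-50443690, minus strand): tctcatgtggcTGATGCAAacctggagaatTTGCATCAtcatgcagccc
Asns (chr6:7693214-7693243, minus strand): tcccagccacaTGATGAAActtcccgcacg
Fgf21 (chr7:45615611-45615640, minus strand): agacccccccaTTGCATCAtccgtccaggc
The match in Chac1 began 193 bases before the start, that in Fgf21 139 bases before, and that in Asns 23 bases before. The match in Trib3 lay 14 bases after the start. Slc7a11 held 2 matches in opposite orientations, which began 66 and 47 bases before the start.

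The 38 arrays differed in brightness, and this touches most values below. Their 75th percentiles ran from 36.8 to 1320 intensity units (median 195), and 37.3% to 78.8% of probes were well above background. With a boundary at 600 units, 11 arrays were bright (672 or more) and 27 dim (460 or less). The bright arrays were 4 of 10 in LFC, 2 of 10 in HFC, 0 of 6 in HF5, 4 of 6 in HF20 and 1 of 6 in HF75. The tissue label was checked with 10 brown adipocyte markers, Ucp1, Cidea and Prdm16 among them: each was well above background on some arrays of every group, and 8 to 10 of them on every array of a group. Their summed level was 6.72 to 9.95 on 37 arrays and 3.25 on the HF75 array of Week 3, where the summed level of 10 macrophage markers was 5.18 against 1.91 to 4.31 on the others. That array stands apart, and the differences of HF75 from HFC are given with and without it.

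All 10 members were on the array, with 15 probes. The probe with the highest mean was used for Trib3, Fgf21, Slc3a2 and Slc7a11, which have several, and across the arrays its level correlated with the others of the same gene at 0.77 to 0.94 except for Trib3, where r was 0.27. The transcription factor genes Atf4 and Ddit3, the pseudokinase gene Trib3, the glutathione-degrading enzyme gene Chac1, asparagine synthetase (Asns) and the transporter heavy chain Slc3a2 were well above background on all 38 arrays. Psat1, an enzyme of serine synthesis, was so on 36 arrays and Slc7a5, the LAT1 light chain that imports large neutral amino acids together with Slc3a2, on 22. Fgf21 was well above background on 9 arrays, 9 of the 11 bright ones and 0 of the 27 dim ones. Slc7a11, the cystine transporter light chain, was so on 1 array and did not reach the 6 arrays required for testing, which left 9 members among 21623 genes tested.

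The stress transcription factor genes had closely spaced group medians. Ddit3, which encodes CHOP, had a median level of 0.59 in LFC (0.26 to 0.89), 0.78 in HFC (0.27 to 1.30), 0.37 in HF5 (-0.43 to 0.82), 0.50 in HF20 (-0.04 to 1.62) and 0.21 in HF75 (-0.72 to 0.45). Atf4 had a median of 1.76 in LFC (-0.65 to 2.53), 1.57 in HFC (0.58 to 2.68), 1.67 in HF5 (0.52 to 2.02), 1.15 in HF20 (0.35 to 1.61) and 1.33 in HF75 (0.30 to 2.03). The ranges of all groups overlapped for both genes. Trib3, a feedback inhibitor of ATF4 and CHOP, stayed between -0.90 and 0.70 on the 38 arrays, with group medians of -0.20 in HFC and 0.22 in HF5 at the ends. Chac1 had medians of -0.83 in LFC, -0.54 in HFC, -0.35 in HF5, -1.17 in HF20 and -0.35 in HF75, within -3.13 to 0.83 over all arrays.

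Among the amino acid genes, Asns had the highest group median in HF20, at 4.10 (3.26 to 5.19), against 3.37 in LFC (2.41 to 4.51), 2.93 in HFC (1.87 to 4.31), 3.07 in HF5 (2.17 to 4.05) and 2.84 in HF75 (2.30 to 4.03). The lower end of HF20 still lay inside the range of each other group. Psat1 medians were -1.88 in LFC, -2.11 in HFC, -2.06 in HF5, -1.83 in HF20 and -1.75 in HF75, and its single highest level, 0.10, was on the HF75 array of Week 3. Slc7a5 was ordered the other way from Asns at its ends, with the lowest median in HF20, -5.44 (-6.82 to -4.03), then HF5, -4.56 (-6.30 to -3.16), LFC, -4.43 (-6.57 to -2.63), HFC, -3.55 (-5.93 to -2.84), and HF75, -3.19 (-4.55 to -0.89). Its partner Slc3a2 had medians of 3.72 in LFC, 3.46 in HFC, 3.91 in HF5, 2.88 in HF20 and 3.78 in HF75. Fgf21 had medians of -6.38 in LFC, -6.59 in HFC, -5.65 in HF5, -5.16 in HF20 and -5.17 in HF75 and lay between -7.94 and -2.66 over all arrays. Slc7a11 had medians of -6.77, -6.44, -5.49, -7.49 and -5.34 in the same order and lay between -8.88 and -3.41. Most of these levels of Fgf21 and Slc7a11 come from arrays where the probe was not well above background. For every member the ranges of each pair of compared groups overlapped. The share of all genes for which this holds is not given here, so the overlap is a description only.

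**Figure D1:**
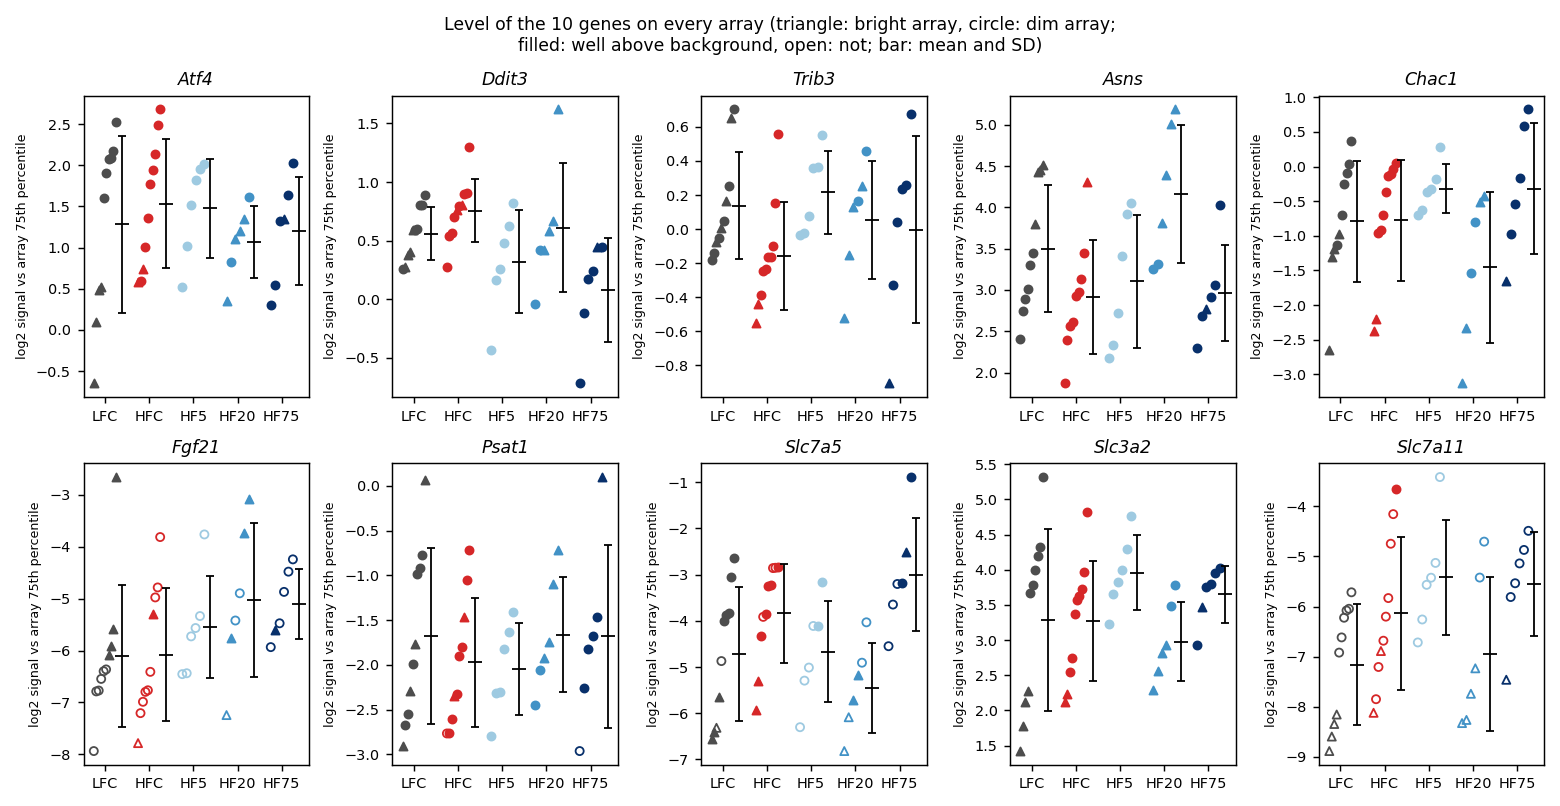
Levels of the 10 genes (vertical axes, log2 signal relative to the array's 75th percentile) on every array of the 5 groups (horizontal axes), with bright arrays as triangles, dim arrays as circles, filled symbols where the probe was well above background, and a bar for the mean and SD. The groups overlap for every gene, which is a description only, since the share over all genes is not given. The open symbols show that Fgf21 and Slc7a11 were seldom above background.

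The level of several members moved with the brightness class of the array. On average the bright arrays were lower than the dim ones by these log2 differences: -2.36 for Slc7a11, -1.91 for Slc7a5, -1.45 for Slc3a2 (mean 2.37 against 3.82), -1.35 for Chac1 and -0.96 for Atf4. Asns differed in the opposite direction by 1.31 (4.27 against 2.96), while Psat1, Fgf21, Ddit3 and Trib3 differed by -0.24 to 0.49. The Slc7a11 probe was well above background on 0 of 11 bright and 1 of 27 dim arrays, so its difference rests on signals near background. The ranges of the classes overlapped for all 10 genes, which is a description only, since the share over all genes is not given here. By the study's count of weeks from day 14, Day 14 and Week 0 are the same day on diet. In LFC the Week 0 array was bright and the Day 14 array dim, and Week 0 minus Day 14 was -2.58 for Slc7a5, -1.72 for Slc3a2, -1.53 for Chac1, -1.39 for Atf4 and 1.40 for Asns, with -0.01 for Ddit3. In HFC both arrays were dim, and the same differences were 0.40, 0.06, 0.97, 0.20 and 0.32, with -0.10 for Ddit3. The scaled values of Slc7a11 and Psat1 differed between these days in both groups, by -2.02 and -1.19 in HFC and by -1.68 and -0.78 in LFC. For Slc7a11 the probe was not well above background on any of these arrays. Its signal before scaling at Day 14 and Week 0 was 3.2 and 3.4 in LFC and 6.6 and 2.0 in HFC. These Slc7a11 differences are therefore not read as changes of the gene. What brightness contributes to the group differences was not tested apart from the within-class values given with them.

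**Figure D2:**
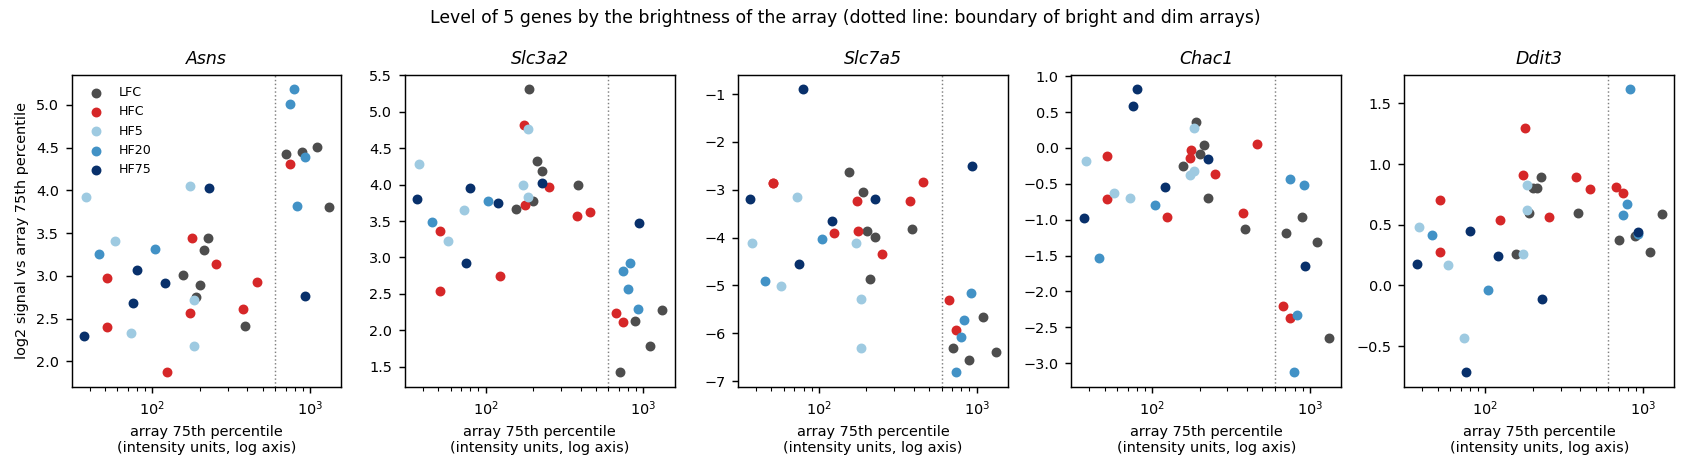
Level of Asns, Slc3a2, Slc7a5, Chac1 and Ddit3 (vertical axes, log2 signal relative to the array's 75th percentile) against the 75th percentile of the array (horizontal axes, intensity units, log axis), 1 point per array coloured by group, with a dotted line at 600 units. Slc3a2, Slc7a5 and Chac1 lie lower and Asns higher on the arrays to the right of the line, and Ddit3 changes by 0.18 on average.

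The comparison of HFC with LFC asks what the high fat, high sucrose diet did to these genes over the whole course. None of the 9 members tested passed an adjusted p of 0.05 (limma with the time point as a block, Benjamini-Hochberg over all genes tested; smallest adjusted p of a member 0.656), and 0 passed an unadjusted p of 0.05. Across the array 0 of 21623 genes (0%) passed after adjustment and 6.82% before it. In a bulk tissue a lower level of an mRNA and a smaller share of the cells that hold it cannot be told apart. Slc7a5 had a mean of -3.84 ± 1.08 (SD, n = 10) in HFC and -4.72 ± 1.45 (n = 10) in LFC, a difference of 0.88 (SE 0.46, 95% interval -0.12 to 1.88), and was higher at 7 of 10 time points. Its differences of 3.56 at Week 0, 2.80 at Week 9 and 2.65 at Week 12 were each taken between a dim HFC array and a bright LFC array, and over the 6 time points at which both arrays were of the same class the difference was 0.19. Asns had a mean of 2.92 ± 0.69 (n = 9) against 3.50 ± 0.77 (n = 10) and a difference of -0.59 (SE 0.31, interval -1.28 to 0.10), and HFC was the lower at 7 of the 9 time points with a value. On the HFC array of Day 10 its spot was marked as an outlier and was left out. That array had 1058 probes so marked, against 2 to 44 on each other array, and its other probes stayed in the fits. Within the same class the difference of Asns was -0.05.

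The other members had smaller mean differences over all 10 time points. Trib3 differed by -0.30 (SE 0.18) and was lower in HFC at 8 of 10 time points, and Ddit3 by 0.20 (SE 0.15), higher at 8 of 10. Psat1 differed by -0.29 (SE 0.31), with -2.82 at Week 12 and a mean of -0.013 without that week. Atf4 differed by 0.25 (SE 0.33), and within the same class Psat1 differed by 0.17 and Atf4 by -0.17. Chac1, Fgf21 and Slc3a2 differed by -0.02 to 0.02 on average. Their differences at single time points ran from -1.51 to 2.71, -5.13 to 2.55 and -1.96 to 1.59. Within the same class these 3 genes differed by -0.38, -0.35 and -0.30, more than Slc7a5 or Asns did there. The Fgf21 probe was well above background on 1 of 10 HFC and 4 of 10 LFC arrays. Adjusted p-values of these 7 genes ran from 0.656 to 0.990. Beside these values, 10 of 10 lymphocyte markers were higher in HFC (7 at an unadjusted p of 0.05, median difference 1.07; summed level -0.82 to 2.01 in HFC and -1.67 to 0.97 in LFC), 7 of 7 erythroid markers tested were higher (median 0.94), and brown adipocyte markers were split 5 to 5. At Week 0, 9 and 12, where LFC alone was bright, the summed erythroid level was 8.30, 11.35 and 10.08 in HFC. In LFC it was 6.72, 6.96 and 7.21. At Day 10, where HFC alone was bright, it was 7.7 against 9.5. At Day 6 and 14 and Week 3, 6, 15 and 18, of matched class, HFC had 9.60, 8.59, 7.24, 9.58, 9.02 and 11.46. LFC had 9.43, 8.41, 7.59, 9.48, 9.30 and 9.76 there. The part of these markers in the members' values was not tested.

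Narrower views of the diet gave the same count of members. The change of the HFC to LFC difference with time on diet ran from -0.06 to 0.08 log2 units per week over the 9 members, with adjusted p from 0.614 to 0.982 (limma), and 0 members passed at an adjusted or an unadjusted p of 0.05. Over the array 0% of genes passed after adjustment and 15.2% before. In Weeks 3 to 18 alone, fitted together with the dose groups, 0 of 9 members passed either threshold, against 0.00925% and 13.8% of all genes. The 2 genes that passed there were Gm9112 (difference -3.81, SE 0.63, limma adjusted p = 0.0379) and Golga7b (-3.43, SE 0.50, limma adjusted p = 0.0107), both lower in HFC at 6 of 6 weeks, and both named because they passed. The count of 2 became 0 without any 1 of Week 3, 6, 9 or 12. Asns was lower in HFC at 6 of 6 weeks, with a mean of 2.88 against 3.74 and a difference of -0.86 (SE 0.43, limma p = 0.0556, adjusted p = 0.365). Its largest differences were -2.58 at Week 12 and -1.53 at Week 9, where LFC alone was bright, and the other 4 were -0.62 to -0.12. Within the same class the mean difference was -0.27.

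The dose groups were each compared with HFC at the 6 shared weeks. The 3 comparisons use the same 6 HFC arrays, so their values are set side by side and not counted as separate support for each other.

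At 5 µg no member passed the adjusted or the unadjusted threshold (0 of 9 each; limma, smallest adjusted p of a member 0.830), where 0% of all genes passed after adjustment and 5.38% before. Slc7a5 had the most negative difference, -0.81 (SE 0.61, interval -2.08 to 0.45), with HF5 lower at 3 of 6 weeks, and its probe was well above background on 2 of the 6 HF5 arrays. The HF5 values of Slc7a5 took part in the choice of the genes, so this difference and its interval are a description only. Its place among the 9 is not counted as a test. Slc3a2 had the most positive difference, 0.70 (SE 0.41, interval -0.16 to 1.55), higher at 4 of 6 weeks. Trib3 differed by 0.37 (SE 0.24) and was higher at 5 of 6, Psat1 by 0.39 (SE 0.43) and also higher at 5 of 6. Ddit3 differed by -0.31, Atf4 by 0.12, Asns by 0.23 and Chac1 by 0.46. Week 3 was the only week of unlike class, with a dim HF5 and a bright HFC array. Chac1 differed by 2.65 at that week and by 0.016 without it, and the other differences without it were -1.10 for Slc7a5, 0.50 for Slc3a2, 0.55 for Psat1, 0.59 for Asns and -0.08 for Atf4. Fgf21 was not well above background on any HF5 array, and its measured means were -5.55 in HF5 and -5.83 in HFC. Skeletal muscle markers were higher in HF5 for 10 of 10 (median 0.88) and lymphocyte markers lower for 10 of 10 (median -0.68). Their part in the members' values was not tested.

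At 20 µg, Asns and Slc7a5 differed from HFC in opposite directions, and neither passed after adjustment. Of the 9 members 0 passed an adjusted p of 0.05 and 2 an unadjusted p of 0.05 in limma, where 0% of all genes passed after adjustment and 32.7% before, so the members' share lay below that of all genes. Asns was higher in HF20 at 6 of 6 weeks, with a mean of 4.16 ± 0.83 (SD, n = 6) against 2.88 ± 0.83 (n = 6) and a difference of 1.28 (SE 0.43, interval 0.40 to 2.17). In limma this gave p = 0.00646 and an adjusted p of 0.121. The weekly differences of Asns were 0.08, 1.24, 0.28, 3.32, 1.87 and 0.92 from Week 3 to Week 18. The larger ones at Week 6, 12 and 15 were taken between a bright HF20 array and a dim HFC array. At Week 3, 9 and 18 both arrays were of the same class, and over these the difference of Asns was 0.43.

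Slc7a5 was lower in HF20 at 5 of 6 weeks, with a mean of -5.45 ± 0.97 against -3.85 ± 1.18 (SD, n = 6 each) and a difference of -1.60 (SE 0.61, interval -2.87 to -0.34). In limma this gave p = 0.0154 and an adjusted p of 0.124. Its weekly differences were 0.76, -2.49, -2.05, -2.17, -2.48 and -1.17, so that Week 3 alone went the other way. The probe was well above background on 2 of the 6 HF20 arrays. At Week 9, 12 and 18 it was not so on either the HF20 or the HFC array, and at Week 15 not on the HF20 array. At Week 12 its signal before scaling was 11.7 in HF20 and 8.23 in HFC. Over the 3 weeks of matched class, which include Week 9 and 18, the difference was -0.82. With the class as a covariate it was -0.92 for Slc7a5 and 0.53 for Asns. Without Week 3, 2993 genes passed an adjusted p of 0.05, and both members were among them (limma, Asns 1.53 with adjusted p = 0.0447 and Slc7a5 -2.07 with adjusted p = 0.0462), so these calls turn on the arrays of 1 week.

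For the other members Psat1 differed by 0.77 at 20 µg (SE 0.43, limma p = 0.0840, adjusted p = 0.196), higher at 5 of 6 weeks, and Chac1 by -0.68 (SE 0.46), lower at 5 of 6. Trib3 differed by 0.20, Ddit3 by -0.01, Atf4 by -0.29 and Slc3a2 by -0.28. Over the weeks of matched class Chac1, Atf4 and Slc3a2 were above 0 (0.11, 0.31 and 0.51). Fgf21 was not well above background on any of the 6 HFC arrays and was so on 3 of the 6 HF20 arrays, all bright, with measured means of -5.02 in HF20 and -5.83 in HFC. The median difference of all genes was itself -0.21 in this comparison and moved to 0.04 with quantile normalization and to -0.42 with another background correction (normexp). Under these 2 settings Asns differed by 1.02 and 1.12 and Slc7a5 by -0.77 and -0.93. Skeletal muscle markers were higher in HF20 for 10 of 10 (median 1.80), brown adipocyte markers for 7 of 10 (median 0.998), and erythroid and nerve markers lower for 7 of 7 each (medians -1.59 and -1.50). The summed muscle level was above HFC at Week 3 (8.43 against -0.02) and Week 15 (8.56 against 3.69). At Week 6, 9, 12 and 18 it was below HFC. The summed erythroid level at Week 6, 12 and 15, of unlike class, was 6.89, 7.33 and 7.10 against 9.58, 10.08 and 9.02. At Week 3, 9 and 18 it was 7.17, 11.51 and 10.35 against 7.24, 11.35 and 11.46. The part of these markers in the members' values was not tested.

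At 75 µg the HF75 and HFC arrays were of the same brightness class at each of the 6 weeks. Of the 9 members 0 passed an adjusted p of 0.05 and 1, Ddit3, an unadjusted p of 0.05 (limma), where 0% of all genes passed after adjustment and 9.24% before. Ddit3 had a mean of 0.08 ± 0.44 in HF75 and 0.63 ± 0.22 in HFC (SD, n = 6 each), a difference of -0.55 (SE 0.23, interval -1.02 to -0.07), and was lower at 5 of 6 weeks. In limma this gave p = 0.0270 and an adjusted p of 0.526. Its weekly differences were -0.31, -0.67, -0.53, -1.26, -0.68 and 0.17 from Week 3 to Week 18. Without the HF75 array of Week 3 the difference was -0.60. Leaving out that array or 1 time point in turn gave -0.69 to -0.40, and the largest weekly difference, -1.26, was at Week 12.

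Slc7a5 differed by 0.85 at 75 µg (SE 0.61, interval -0.41 to 2.12), with 3 weeks higher and 3 lower. The HF75 values of Slc7a5 also took part in the choice of the genes, so this difference and its interval too are a description only. Its place among the 9 members at 75 µg is likewise not counted as a test. The weekly values were 3.42, -0.42, -0.35, -0.63, 1.15 and 1.97, and without the Week 3 array of HF75, which stood apart in its markers, the difference was 0.56. Psat1 differed by 0.75 (SE 0.43, limma p = 0.0905, adjusted p = 0.563) and was higher at 5 of 6 weeks. Its difference was 2.45 at Week 3, and without that array the mean difference was 0.31. Asns differed by 0.08, Chac1 by 0.46, Slc3a2 by 0.39 (higher at 5 of 6 weeks), Trib3 by 0.15 and Atf4 by -0.16 (lower at 5 of 6). Without the array these differences were 0.22, 0.69, 0.25, 0.26 and -0.23. Fgf21 was well above background on 1 of the 6 HF75 arrays and on none of the 6 HFC arrays, with measured means of -5.10 and -5.83. Brown adipocyte markers were lower in HF75 for 9 of 10 (median -1.25) and muscle markers higher for 10 of 10 (median 0.58). Without the array the counts were again 9 and 10, and the medians -0.53 and 1.31. Their part in the members' values was not tested.

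**Figure D3:**
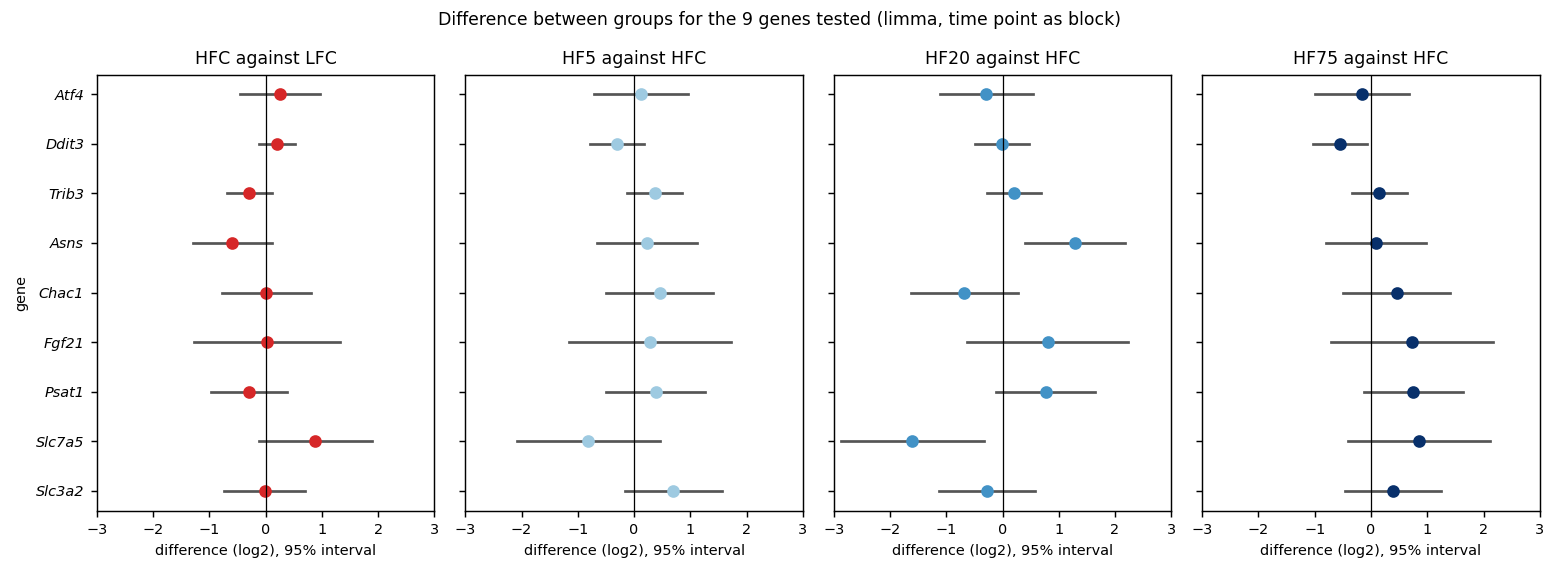
Differences in log2 level (horizontal axes, points, with 95% intervals as lines) of the 9 tested genes (vertical axis) for HFC against LFC and for each dose group against HFC, from limma blocked by time point. The intervals of Asns and Slc7a5 at 20 µg and of Ddit3 at 75 µg leave out 0, and none of the 3 passed after adjustment over all genes. Those of Slc7a5 at 5 and 75 µg are descriptions only, since the choice of the genes used its HF5 and HF75 values.

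**Figure D4:**
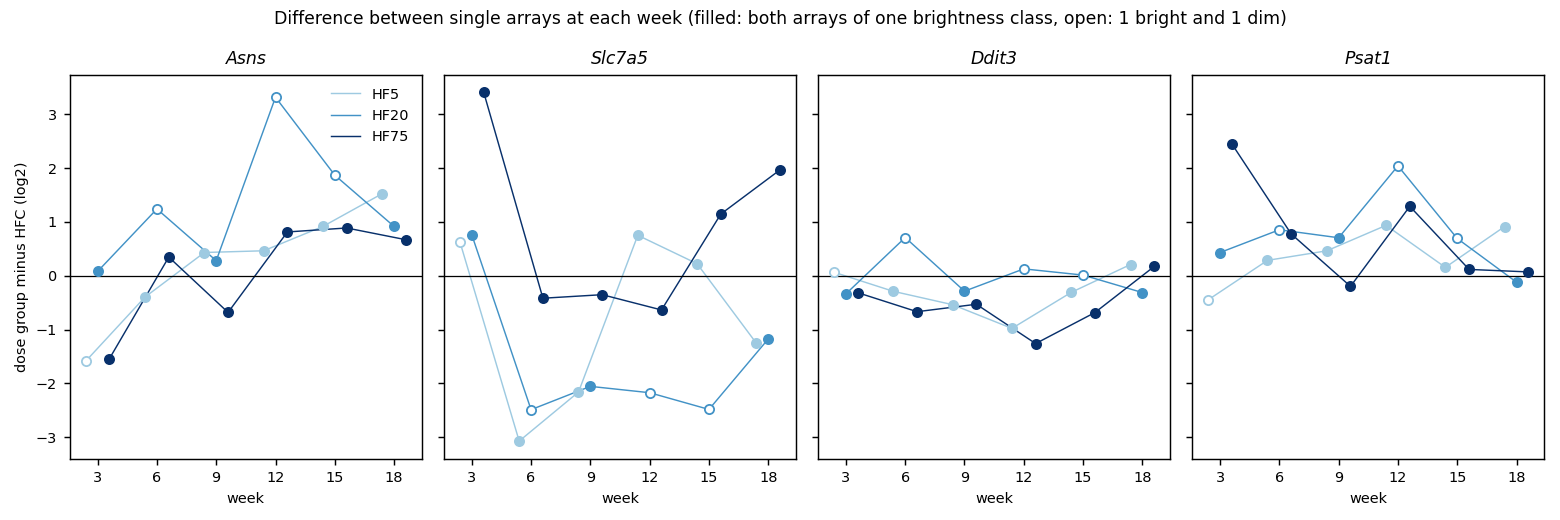
Difference between the dose array and the HFC array of the same week (vertical axis, log2) for Asns, Slc7a5, Ddit3 and Psat1 against the week (horizontal axes), with filled points where both arrays were of the same brightness class. The HF20 points of Asns lie at 0.08 to 3.32 and those of Slc7a5 at -2.49 to 0.76, and the open points among them are Week 6, 12 and 15.

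The difference of Slc7a5 between HF75 and HF5 took part in the choice of the genes and is given as a description only. Slc7a5 had the levels -2.51, -3.65, -3.20, -4.55, -3.19 and -0.89 in HF75 from Week 3 to Week 18, and -5.29, -6.30, -5.01, -3.16, -4.11 and -4.11 in HF5. HF75 was the higher at 5 of 6 weeks, by 1.67 on average, and by 1.38 without the HF75 array of Week 3. Above background, the probe was measured on 3 of 6 arrays in HF75 and 2 of 6 in HF5. The difference was 0.61 with the normexp background correction, 0.94 when signals under the background limit were raised to it, and 2.06 with quantile normalization. The other 8 members with a fitted value differed between HF75 and HF5 by -0.31 to 0.45, and Slc3a2, the partner of Slc7a5 in the transporter, by -0.31.

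The wider pathway was described by 58 further genes: the eIF2alpha kinases, eIF2alpha and its phosphatases, other transcription factors and targets of the response, enzymes of serine, glycine, one-carbon and proline synthesis, other amino acid transporters and the cytosolic tRNA synthetases. Of these 57 were tested, and Ppp1r15a was not found by name. None passed an adjusted p of 0.05 in any comparison (limma). At an unadjusted p of 0.05, 3 were higher and 0 lower in HFC against LFC, 1 higher and 3 lower at 5 µg, 17 higher and 3 lower at 20 µg, and 0 higher and 3 lower at 75 µg, beside 6.82%, 5.38%, 32.7% and 9.24% of all genes. By direction, the shares of all genes were 4.76% higher and 2.06% lower in HFC against LFC, and 3.19% and 2.19% at 5 µg. They were 12.4% higher and 20.2% lower at 20 µg, and 4.85% and 4.39% at 75 µg. The median differences of the 57 pathway genes were -0.10, 0.00, 0.39 and -0.02. Brightness classes differed at some weeks at 20 µg, so medians by list follow for matched weeks, with all weeks in brackets. They were 0.01 (0.50) for the eIF2alpha list, 0.13 (0.72) for other transcription factors and 0.25 (-0.18) for other targets. For the synthesis enzymes they were 0.10 (-0.30), for other transporters -0.285 (-0.289) and for tRNA synthetases 0.27 (0.60). All genes had 0.06 (-0.21).

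The genes with the smallest p in the wider pathway differed between the comparisons. In HFC against LFC they were Slc38a1 (0.89, SE 0.30, higher at 9 of 10 time points) and Slc7a1 (1.25, SE 0.57, higher at 6 of 10), transporters of neutral and of cationic amino acids, and the secreted glycoprotein Stc2 (1.19, SE 0.41, higher at 8 of 10), each with a limma adjusted p of 0.656. At 5 µg they were Gars, the glycyl-tRNA synthetase (-0.80, SE 0.35, lower at 6 of 6 weeks), the neutral amino acid transporter Slc1a4 (-1.29, SE 0.58, lower at 5 of 6) and Stc2 (-1.23, SE 0.59, lower at 5 of 6), each with a limma adjusted p of 0.830. At 20 µg they were the histidyl-tRNA and the glutamyl-prolyl-tRNA synthetases Hars (0.83, SE 0.26, higher at 5 of 6) and Eprs (0.82, SE 0.28, higher at 6 of 6) and Slc7a1 (-2.17, SE 0.76, lower at 4 of 6), each with a limma adjusted p of 0.121. Pairs of a bright HF20 and a dim HFC array entered these differences, and values for matched weeks are not given here. At 75 µg they were the haem-sensing eIF2alpha kinase Eif2ak1 (-0.67, SE 0.30, lower at 5 of 6), the valyl-tRNA synthetase Vars (-0.64, SE 0.29, lower at 6 of 6) and the tyrosyl-tRNA synthetase Yars (-0.52, SE 0.25, lower at 6 of 6), with limma adjusted p of 0.534, 0.534 and 0.538. Without the HF75 array of Week 3 they differed by -0.48, -0.54 and -0.49 (limma adjusted p of 0.812, 0.806 and 0.805), none of the 3 reached an unadjusted p of 0.05, and the count of the wider pathway became 1 higher and 2 lower.

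The 20 cytosolic tRNA synthetases, which charge tRNAs with amino acids, leaned one way as a list in HFC against LFC and at 20 µg, and both comparisons use the HFC arrays. In HFC against LFC 18 of 20 had a difference below 0 (median -0.26, all genes 0.06), and 0 reached an unadjusted p of 0.05. In Weeks 3 to 18 alone 18 of 20 were below 0 (median -0.38, all genes 0.09), with 2 at an unadjusted p of 0.05. At 20 µg 19 of 20 had a difference above 0 (median 0.60, all genes -0.21), and 8 reached an unadjusted p of 0.05. In the same order 6.82%, 13.8% and 32.7% of all genes reached that threshold in limma. A difference above 0 was found for 56.3%, 55% and 40.9% of all genes. Where only time points of matched brightness class were kept, 18 of 20 were still below 0 in HFC (median -0.15, all genes -0.01) and 19 of 20 above 0 at 20 µg (median 0.27, all genes 0.06). The split was 12 above and 8 below 0 at 5 µg and 10 to 10 at 75 µg, where it was 9 to 11 without the HF75 array of Week 3. Transporters other than the members were split 6 above to 4 below 0 in HFC against LFC, 3 to 7 at 5 µg, 4 to 6 at 20 µg and 4 to 6 at 75 µg (2 to 8 without that array).

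Genes whose products act together were also compared across arrays, within each brightness class because of the shift between classes. Slc3a2 was set against its partners Slc7a5 and Slc7a11, Atf4 against its targets Asns and Psat1, and Ddit3 against Trib3 and Chac1, which gave 6 pairs in 2 classes and 12 correlations. None passed a Benjamini-Hochberg adjusted p of 0.05 (permutation test, 2-sided). The permutations moved arrays freely within a class, so the p-values take no account of arrays that share a group or a time point. Slc3a2 and Slc7a11 had r = -0.43 and rho = -0.44 over the 27 dim arrays (permutation p = 0.0238 and 0.0212, adjusted p = 0.285 and 0.254; r = -0.36 without the 2 arrays farthest from the median of Slc3a2), on a probe that was above background on 1 of them. Slc3a2 and Slc7a5 had r = 0.56 over the 11 bright arrays (permutation p = 0.0843, adjusted p = 0.506) but rho = 0.21 (permutation p = 0.538, adjusted p = 0.649), and r turned to -0.26 without 2 arrays, so that it rested on those. Over the 27 dim arrays the same pair had r = -0.09. Atf4 had r = -0.06 with Asns over 10 bright arrays and 0.00 over the dim ones. Ddit3 and Chac1 had r = -0.48 and rho = -0.61 over the 11 bright arrays (permutation p = 0.128 and 0.0518, adjusted p = 0.511 and 0.311) and r = 0.04 over the dim ones.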

How the data were processed

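Total RNA of brown adipose tissue was labelled with Cy3 and hybridised to 38 one-colour arrays on 32 slides, scanned on 12 days. The deposited scanner files hold intensity values of each spot, with a processed signal that the authors' scanning software had corrected for background and had not scaled from array to array (Agilent Feature Extraction 9.1 per the labels, 10.5.1.1 in the file headers). A deposited series-wide sheet holds log2 ratios that the authors took to LFC at the matching time. Of its columns, 24 correlated with the scanner files at 0.993 to 1.000 across probes and the 4 of Week 15 at -0.0041 to 0.0036, so it served only as an alternative without Week 15. The number of unmapped sample columns was 0.

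From the processed signal, log2 values minus each array's 75th percentile were computed here for 40628 probes, spots marked as outliers were left out, and 1 probe, the highest by mean, stood for each gene name. Genes well above background on at least 6 arrays were tested with limma 3.58.1 in R 4.3.3, files being read with data.table (1.17.8), with the time point as a block, 2-sided, and Benjamini-Hochberg adjustment over 21623 genes. HFC against LFC used 20 arrays. The dose comparisons used the 30 arrays of Week 3 to Week 18. The time-point labels pair the arrays, and the residuals of the HFC and LFC arrays of the same time point correlated at -0.24 to 0.67. These correlations were 0.40 to 0.67 where both arrays were of the same brightness class and -0.24 to 0.13 where they were not. Weeks were counted from day 14 of the diet. Correlations used 100000 permutations (numpy 2.4.6, scipy 1.17.1, pandas 2.3.3, Python 3.11.15, matplotlib 3.10.9). The fits were tested on simulated data.

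The members and gene lists were chosen with earlier results of these data known, and HF75 against HF5 was not tested because the choice used it. The text names all members, the 3 pathway genes with the smallest p in HFC against LFC and each dose comparison, and any gene that passed the adjusted threshold. How few arrays there are, and how dim some were, limits the precision.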

Additional observations from a re-analysis of the deposited data

Results flagged for a closer look

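Fgf21 in LFC was the only 1 of 50 combinations of gene and group in which 1 array lay far from the rest of its group by Dixon's test at the 95% level. Its level on the LFC array of Week 3 was -2.66, a bright array, and the nearest other LFC array was at -5.58. Chance alone flags about 1 in 20 groups. The reason was not tested.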

How the results depend on the processing

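Most values kept their direction and their side of the threshold under the alternatives: of the single values 665 did so, 74 changed sign, 2 came to pass the threshold, and of the counts of genes or members 208 stayed within 1.5 times, 12 rose and 15 fell further. Fgf21 values rest mostly on signals that were not well above background. The cause of each change was not tested.

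With another scaling or background step the following differences changed sign. Quantile normalization gave -0.11 for Chac1, -0.39 for Fgf21 and 0.078 for Slc3a2 in HFC against LFC and -0.017 for Asns at 75 µg. Normexp gave -0.059 for Chac1 in HFC against LFC, -0.23 for Fgf21 and -0.071 for Psat1 at 5 µg, 0.15 for Ddit3, -0.068 for Trib3 and -0.62 for Fgf21 at 20 µg, and -0.50 for Asns and -0.011 for Slc3a2 at 75 µg. Raising low signals to the background limit gave 0.26 for Slc7a5 at 5 µg and -0.068 for Fgf21 at 20 µg. The mean over the probes of a gene gave 0.20 for Slc3a2 in HFC against LFC, -0.023 for Trib3 at 20 µg, and -0.32 for Trib3 and -0.074 for Slc3a2 at 75 µg. The deposited table gave 0.018 for Slc3a2 in HFC against LFC, and -0.04 for Trib3 and -0.078 for Asns at 75 µg.

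With the brightness class as a covariate the differences were -0.033 for Atf4 and -0.29 for Chac1 in HFC against LFC, -0.10 for Atf4 at 5 µg, and 0.36 for Atf4 and 0.39 for Slc3a2 at 20 µg. With the time points of matched class alone, an alternative chosen after seeing the data, they were -0.17 for Atf4, -0.38 for Chac1, -0.35 for Fgf21 and 0.17 for Psat1 in HFC against LFC, -0.077 for Atf4 at 5 µg, and 0.31 for Atf4, 0.11 for Chac1, -0.39 for Fgf21 and 0.51 for Slc3a2 at 20 µg. With the slide as a random block HFC against LFC gave -0.024 for Fgf21 and 0.043 for Slc3a2, and with the scan day -0.022 for Chac1 and -0.001 for Fgf21.

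Counts of genes past an adjusted p of 0.05 (limma) changed as follows. HFC against LFC had 0 and came to 3 with the scan day as a random block, and its change with time had 0 and came to 691 with the class as a covariate. HFC against LFC in Weeks 3 to 18 had 2 and came to 4 with quantile normalization, to 1 with no filter on dim probes, with the slide or the scan day as a random block and with the deposited table, and to 0 with normexp, raised low signals, only genes above background on every array, the class as a covariate, matched classes, or no replicate block. HF75 against HFC had 0 and came to 1 with quantile normalization, with the class as a covariate, and with only genes above background on every array. Without the replicate block no member passed either, and Asns at 20 µg had an adjusted p of 0.189, so the pairing by time point changed no call of a member. A plain t-test, the kind the methods name, was run here unpaired on the 10 arrays of each group and called 881 genes in HFC against LFC before adjustment and 0 after, with 0 members.

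Leaving out 1 time point in turn gave 0 to 2993 genes and 0 to 2 members past the threshold at 20 µg (2993 and 2 without Week 3, 1 and 0 without Week 9 or Week 18), 0 to 1 genes at 75 µg (1 without Week 12), 0 to 3 in HFC against LFC in Weeks 3 to 18 (0 without Week 3, 6, 9 or 12, 1 without Week 15 and 3 without Week 18), and 0 to 423 for its change with time, the 423 without Week 0. Over the same left-out time points HFC against LFC ran from -0.29 to 0.18 for Chac1, -0.20 to 0.20 for Slc3a2 and -0.26 to 0.59 for Fgf21. At 5 µg Asns ran from -0.033 to 0.59 and Atf4 from -0.077 to 0.28, at 20 µg Atf4 from -0.44 to 0.12, Ddit3 from -0.16 to 0.051 and Slc3a2 from -0.58 to 0.040, and at 75 µg Asns from -0.077 to 0.41 and Trib3 from -0.038 to 0.26.

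Of the correlations across arrays, quantile normalization turned those over the dim arrays to 0.16 for Slc3a2 with Slc7a5, 0.032 for Slc3a2 with Slc7a11, -0.012 for Atf4 with Asns and -0.032 for Ddit3 with Chac1. Subtracting the mean of group and class gave, over the bright arrays, -0.40 for Slc3a2 with Slc7a5, -0.13 for Slc3a2 with Slc7a11, 0.27 for Atf4 with Asns, -0.52 for Atf4 with Psat1 and 0.012 for Ddit3 with Trib3, and over the dim arrays 0.012 for Slc3a2 with Slc7a5 and 0.029 for Ddit3 with Trib3.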
